A study of Homo sapiens with 9 samples.

Results

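Guanylate-binding proteins (GBPs) are large GTPases that cells make in quantity after exposure to interferon. GBP1, GBP2, GBP3 and GBP4 were measured in Huh7, an established human hepatocellular carcinoma line, by 9 probe sets of an Affymetrix expression array, out of 54613 probe sets tested for the whole series. GBP1 had 4 probe sets, GBP2 had 2, GBP3 had 1 and GBP4 had 2. A probe set was counted as a member when the platform annotation gave it 1 gene symbol and that symbol was one of the 4. The genes were chosen from results of these same arrays, the large difference of GBP1 after 6 hours among them. Their differences between groups are therefore given as a description with standard errors and with no p-value. The number of their probe sets past a threshold is given once, beside the share of all probe sets, and nothing is read from it.

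PGG (pentagalloyl glucose, a plant gallotannin) was given to Huh7 cells at 0.1 mg/mL, with 3 arrays after 6 hours and 3 after 48 hours, and the solvent PBS alone was given for 48 hours, again with 3 arrays. The sample titles number the arrays of a group as biological replicates, and all groups share the same cell line, and the labels give no genetic change. The descriptions of the PBS arrays call them 0 hours of PGG, whereas the titles and the methods give 48 hours of PBS, which is used here. No PBS array at 6 hours was analysed, so PGG at 6 hours and PBS differ in hours of culture too, and the share of each cannot be told apart. Huh7 is 1 cell line, and RNA of whole cultures cannot tell more expressing cells from more RNA per cell.

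Values are log2 signals after RMA, a procedure that corrects background, equalises the arrays and summarises the probes of a set. A difference of 1 on this scale is a ratio of 2. The median probe set of an array read 5.16 to 5.20 and the lower quartile 3.80 to 3.84. The pairwise correlation of arrays within a group was at least 0.993. Hepatocyte and hepatoma markers were high in every group, with ALB (albumin) at 13.47 in PGG at 6 hours, 13.45 in PGG at 48 hours and 13.54 in PBS, and 0 of 13 measured markers averaged below 5. The mean of the list on an array ranged over 11.20 to 11.26, 10.94 to 10.99 and 11.02 to 11.13 in that order. Other markers of the list differed more from PBS, from -0.75 (FOXA2) to 1.54 (TTR) at 6 hours. At 48 hours they ran from -1.99 (APOB) to 1.00 (TTR). PTPRC, the defining marker of leukocytes, read 3.38, 3.34 and 3.30 in the same order. Of 11 measured leukocyte markers, 6 averaged below 5 after PGG at 6 hours, 7 after PGG at 48 hours and 6 in PBS, and the mean of the list on an array ranged over 5.22 to 5.33, 5.16 to 5.23 and 5.32 to 5.39. LYZ (lysozyme) was the highest of them, at 12.13, 11.96 and 12.14. The mean of 11 endothelial and stromal markers on an array ranged over 4.92 to 5.00 in PGG at 6 hours, 4.95 to 4.99 in PGG at 48 hours and 4.89 to 4.98 in PBS. RNA quality was read from ACTB, as the excess of its 3′ over its 5′ control probe set, which was 1.13 to 1.23 after PGG at 6 hours, 2.14 to 4.03 after PGG at 48 hours and 0.96 to 1.57 in PBS. The same excess of GAPDH was 0.19 to 0.24 after PGG at 6 hours, 0.27, 1.83 and 0.39 after PGG at 48 hours, and 0.13 to 0.35 in PBS. PGG 48 h replicate 2 was highest by both, and the other PGG 48 h arrays stood apart from PBS by ACTB but hardly by GAPDH.

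GBPs bind GTP with low affinity, assemble into multimers when they hydrolyse it, and gather on vacuoles or on bacteria in the cytosol, where they expose bacterial lipopolysaccharide to the inflammatory caspases. GBP1, GBP2 and GBP5 carry a C-terminal CaaX motif for a prenyl anchor, whereas GBP3, GBP4, GBP6 and GBP7 do not. Interferon-gamma drives the family through GAS elements and through the factor IRF1 at interferon-stimulated response elements (ISRE). Tumour necrosis factor and interleukin-1 are known to raise GBP1 as well.

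The 7 human GBP genes lie side by side on chromosome 1 in the order GBP3, GBP1, GBP2, GBP7, GBP4, GBP5 and GBP6 (GRCh38.p14, 89006680 to 89388160, 381 kb), with no other protein-coding gene wholly between them in RefSeq. Promoter windows of RefSeq, from 250 bases before the annotated start of a gene to 50 bases after it, were matched for GBP1, GBP3 and GBP4. These are the members with a window in the source used here, which had none for GBP2. The 3 members gave different patterns of signal, described below with that of GBP2. Whether interferon acts on them through these windows was not tested. All 3 windows lie on the minus strand of GRCh38.p14 and are written 5′ to 3′ along the gene. Capitals mark matches to 3 motifs searched on both strands, which are the IRF and ISRE core GAAANNGAA, the GAS motif TTCNNNGAA and the AP-1 motif TGANTCA.

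GBP1 (chr1:89065159-89065458): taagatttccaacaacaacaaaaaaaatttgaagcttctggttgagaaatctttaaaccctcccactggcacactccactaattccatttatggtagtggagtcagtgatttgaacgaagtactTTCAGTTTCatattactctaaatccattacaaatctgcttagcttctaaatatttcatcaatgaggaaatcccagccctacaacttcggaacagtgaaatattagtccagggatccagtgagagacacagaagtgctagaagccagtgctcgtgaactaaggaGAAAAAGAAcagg
GBP3 (chr1:89022817-89023116): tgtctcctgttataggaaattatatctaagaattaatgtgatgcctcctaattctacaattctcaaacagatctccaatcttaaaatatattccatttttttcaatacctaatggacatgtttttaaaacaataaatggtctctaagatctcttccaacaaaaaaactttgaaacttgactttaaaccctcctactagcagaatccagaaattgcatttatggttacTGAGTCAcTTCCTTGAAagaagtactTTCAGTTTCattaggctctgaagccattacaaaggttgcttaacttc
GBP4 (chr1:89198893-89199192): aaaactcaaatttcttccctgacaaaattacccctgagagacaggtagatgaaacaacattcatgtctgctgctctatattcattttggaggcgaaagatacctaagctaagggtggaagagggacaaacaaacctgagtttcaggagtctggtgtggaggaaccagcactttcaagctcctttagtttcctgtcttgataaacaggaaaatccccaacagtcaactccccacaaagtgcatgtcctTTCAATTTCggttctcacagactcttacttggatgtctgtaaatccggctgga

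The GBP1 window held the IRF and ISRE core at positions -126 to -118 and again at 38 to 46, counted from 1 at the annotated start. GBP3 held it at 4 to 12 and GBP4 at -3 to 6. GBP3 also held a GAS match at -15 to -7 and an AP-1 match at -23 to -17. The windows of GBP6 and GBP7, searched in the same way but not shown, held no IRF and ISRE core. GBP6 held an AP-1 match at -151 to -145, and GBP7 held no match to any of the 3 motifs. Of 35116 RefSeq windows of the same length, 8.1% held the IRF and ISRE core, 7.7% the GAS motif and 7.7% the AP-1 motif. The windows of GBP1 and GBP3 aligned over 160 columns with 76.2% identical bases, from -235 to -81 in GBP1 and from -95 to 50 in GBP3, and the same 9 bases TTCAGTTTC of the IRF and ISRE core lay in both. The best local alignment of GBP4 with GBP1 covered 14 columns. A match is a description of letters and not of a bound site.

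GBP1, the farnesylated member that forms the coat on cytosolic bacteria, stood highest after 6 hours of PGG, lower after 48 hours and lowest in PBS. Its probe set with the highest mean, 231577_s_at, read 9.45, 9.04 and 9.29 after PGG at 6 hours, 7.38, 6.93 and 7.35 after PGG at 48 hours, and 6.10, 6.09 and 5.67 in PBS. The 3 groups did not overlap. The log2 difference from PBS was 3.31 (standard error 0.16) at 6 hours and 1.27 (standard error 0.16) at 48 hours, which are ratios of 9.90 and 2.41. Between PGG at 48 hours and PGG at 6 hours it was -2.04 (standard error 0.16).

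Another pair of GBP1 probe sets gave the same order of groups. Probe set 202269_x_at read 8.56, 8.55 and 8.52 after PGG at 6 hours, 6.89, 6.41 and 6.81 after PGG at 48 hours, and 5.60, 5.22 and 5.09 in PBS. Probe set 202270_at read 8.36, 8.05 and 8.23 after PGG at 6 hours, 6.44, 6.13 and 6.55 after PGG at 48 hours, and 5.03, 5.22 and 5.01 in PBS. Their differences from PBS were 3.24 (standard error 0.14) and 3.13 (standard error 0.12) at 6 hours, and 1.40 and 1.29 at 48 hours. In all 3 probe sets PGG 48 h replicate 2, the array with the largest 3′ excess of ACTB, was the lowest of its group. Without that array the difference of 231577_s_at at 48 hours was 1.41.

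The last GBP1 probe set, 231578_at, stayed near the lower quartile of the array in every group, at 3.87, 3.88 and 3.92 after PGG at 6 hours, 4.03, 3.79 and 3.76 after PGG at 48 hours, and 3.77, 4.02 and 3.79 in PBS. Its differences from PBS were 0.03 and 0.00 (standard error 0.09 each). The annotation gives it the same accession as 231577_s_at, so probe sets of 1 record disagreed. The ending _x_at or _s_at is the platform's mark for probes that can match more than 1 transcript, and GBP1 and GBP3 are close paralogues. How far GBP3 RNA added to the GBP1 probe sets was not tested. The probe set of GBP3 stood higher at 48 hours than at 6 hours, and the 3 GBP1 probe sets with signal stood lower.

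GBP2, a geranylgeranylated member that joins GBP1 on membranes, was higher at 6 hours than in PBS and higher still at 48 hours. Probe set 202748_at read 8.78 on each array of PGG at 6 hours, 10.12, 10.14 and 10.27 after PGG at 48 hours, and 7.40, 7.47 and 7.18 in PBS. Probe set 242907_at read 8.50, 8.21 and 8.11 after PGG at 6 hours, 8.81, 8.78 and 8.83 after PGG at 48 hours, and 5.61, 5.39 and 5.87 in PBS. The groups did not overlap in either probe set. The difference from PBS was 1.43 (standard error 0.08) at 6 hours and 2.83 (standard error 0.08) at 48 hours by 202748_at, ratios of 2.69 and 7.09. By 242907_at it was 2.65 and 3.18 (standard error 0.13 each), ratios of 6.28 and 9.08. The order of the groups was thus shared by both probe sets, but the step between the 2 times was 1.40 in one and 0.53 in the other.

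GBP3, which has no prenyl anchor of its own and is known to be recruited to coats that GBP1 begins, stood apart from PBS at 48 hours alone. Its probe set 223434_at read 6.32, 6.51 and 6.47 after PGG at 6 hours, 8.49, 8.31 and 8.81 after PGG at 48 hours, and 6.18, 6.40 and 5.97 in PBS. The arrays of PGG at 6 hours and of PBS overlapped, and all 3 arrays of PGG at 48 hours lay above them. The difference from PBS was 0.25 (standard error 0.14) at 6 hours and 2.35 (standard error 0.14) at 48 hours, a ratio of 5.11 at the later time. Without PGG 48 h replicate 2 the later difference was 2.47.

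GBP4, which helps to recruit caspase-4 to the coat, lay under the lower quartile of the array in every group. Probe set 235574_at read 3.37, 3.59 and 3.74 after PGG at 6 hours, 3.59, 3.48 and 3.66 after PGG at 48 hours, and 3.45, 3.64 and 3.59 in PBS. Probe set 235175_at read 3.21 on each array of PGG at 6 hours, 3.19, 3.36 and 3.22 after PGG at 48 hours, and 2.81, 3.15 and 3.31 in PBS. The groups overlapped in both. The differences from PBS were 0.01 and 0.02 (standard error 0.10 each) by 235574_at and 0.12 and 0.17 (standard error 0.11 each) by 235175_at. At such signals a low level and no expression cannot be told apart.

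**Figure D1:**
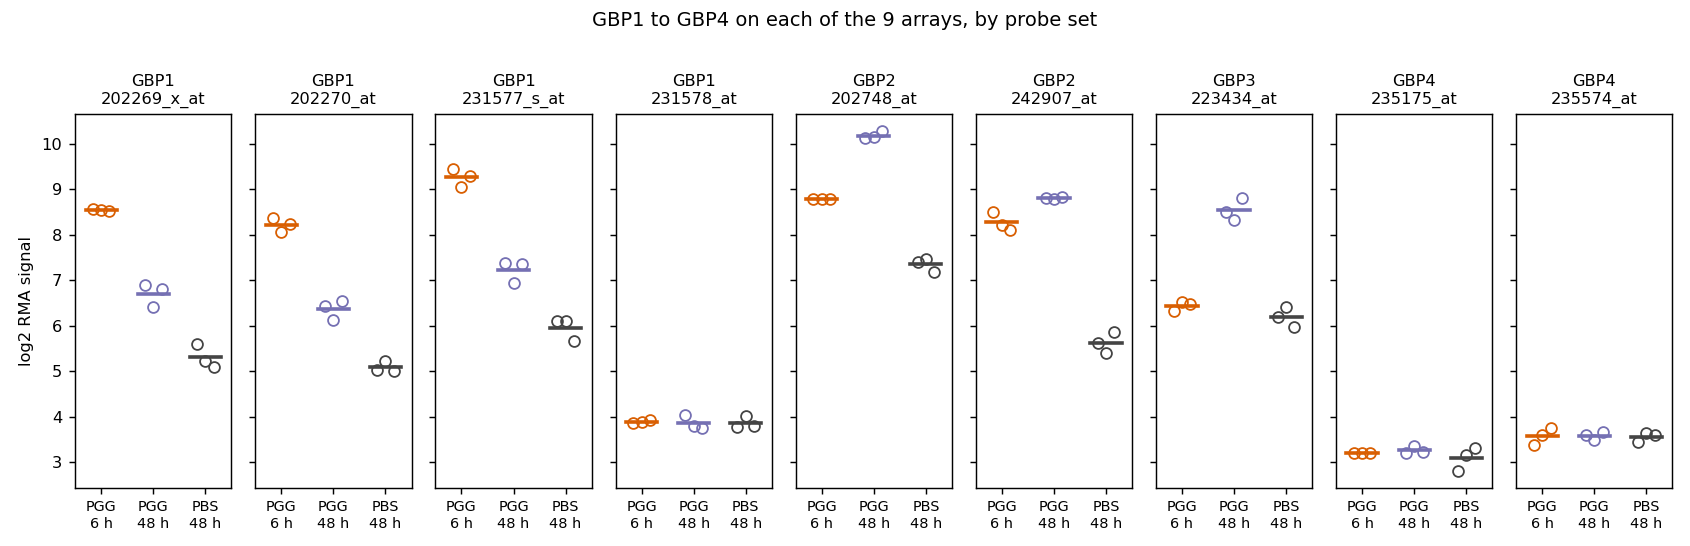
Log2 RMA signal of the 9 probe sets of GBP1 to GBP4. Open circles are single arrays and lines are means of 3 arrays, for PGG at 6 hours, PGG at 48 hours and PBS. The GBP1 probe sets with signal are highest at 6 hours (means of 8.21 to 9.26), both GBP2 probe sets and GBP3 are highest at 48 hours (means of 8.54 to 10.18), and GBP4 lies between 2.81 and 3.74 throughout.

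Counted at an adjusted p under 0.05 from limma, 5 of the 9 probe sets were higher after PGG at 6 hours than in PBS, beside 12.2% of all probe sets, and 6 of 9 were higher at 48 hours, beside 18.8%. Every PGG array lay above every PBS array for 5 of the 9 at 6 hours, beside 18.8% of all probe sets, and for 6 of the 9 at 48 hours, beside 20.9%. The genes were picked with these comparisons known. Both comparisons use the same PBS arrays.

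The remaining family members had probe sets of low signal. GBP5, a geranylgeranylated member, read 3.82, 3.49 and 3.79 after PGG at 6 hours, 4.24, 4.16 and 4.07 after PGG at 48 hours, and 3.66, 3.80 and 3.68 in PBS by its highest-mean probe set. It rose by 0.44 at 48 hours (standard error 0.09, adjusted p = 0.0013 from limma) and differed from PBS by -0.01 at 6 hours (limma, adjusted p = 0.94). Its other probe set, 238581_at, was 0.11 above PBS at 48 hours (limma, adjusted p = 0.43). GBP6 had differences of 0.17 and 0.25 by its highest-mean probe set (limma, adjusted p = 0.31 and 0.090). Without PGG 48 h replicate 1 the later of these was 0.36 (limma, adjusted p = 0.015). The other GBP6 probe set, 1559606_at, differed from PBS by -0.09 at both times (limma, adjusted p = 0.49 and 0.42). GBP7 had no probe set of its own, so its expression was not analysed here.

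The genes that flank the GBP cluster did not share 1 direction. Of 9 measured, 2 were higher and 4 lower after PGG at 6 hours, with the same counts at 48 hours, at an adjusted p under 0.05 from limma over 19775 genes. Over all genes the shares were 17.2% higher and 16.9% lower at 6 hours, against 23.9% higher and 24.3% lower at 48 hours. The median difference of the flanking genes was 0.06 at 6 hours and 0.02 at 48 hours, beside 0.01 and -0.02 over all genes. GTF2B, a general transcription factor on the GBP3 side, rose by 0.41 and by 1.42 (limma, adjusted p = 5.6e-04 and 6.0e-09). KYAT3, a kynurenine aminotransferase on the same side, fell by 0.44 and fell by 0.30 (limma, adjusted p = 4.9e-04 and 0.0040). On the GBP6 side LRRC8B, a subunit of volume-regulated anion channels, fell by 1.67 at 48 hours, and ZNF326, an RNA-binding zinc finger protein, fell by 1.26, with 1.7e-08 as the higher adjusted p from limma. Averaged over all their probe sets they were at -0.84 and -0.63.

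**Figure D2:**
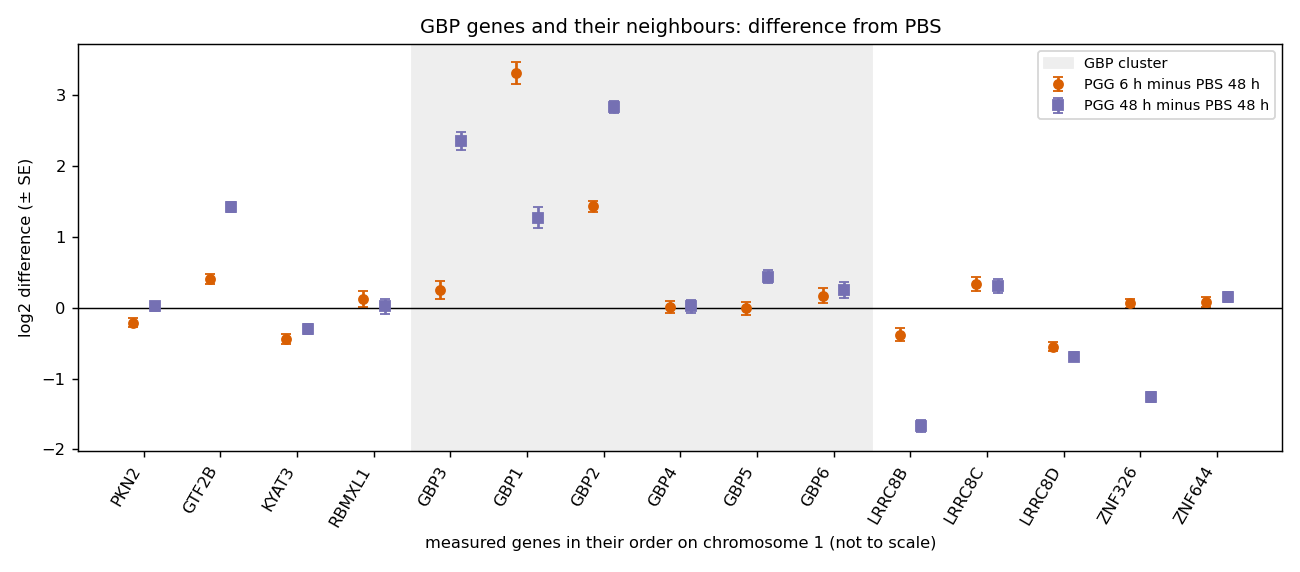
Log2 difference from PBS (± standard error) of measured genes in their order along chromosome 1, equally spaced, with the GBP cluster shaded. The earlier time is drawn as circles and the later one as squares. GBP1 has its larger difference at 6 hours (3.31), GBP3 and GBP2 have theirs at 48 hours (2.35 and 2.83), and GBP4 stays at 0.01 and 0.02.

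Genes of interferon signalling were read next, since interferon is the best known inducer of the family. The list held 26 genes, 24 of them measured. After 6 hours 7 stood higher and 4 lower than in PBS, and after 48 hours 12 stood higher and 5 lower. Over all genes 17.2% were higher and 16.9% lower at 6 hours, and 23.9% and 24.3% at 48 hours. The same shares stand beside the counts of the lists below. The median of the 24 genes was -0.00 at 6 hours and 0.26 at 48 hours, beside the same 0.01 and -0.02 over all genes. IRF1, the factor that acts on GBP promoters, read 7.99, 8.13 and 8.08 after PGG at 6 hours, 8.98, 8.94 and 8.95 after PGG at 48 hours, and 7.26, 7.48 and 7.35 in PBS. It rose by 0.70 and by 1.59 (limma, adjusted p = 8.9e-06 and 2.6e-09), and the 3 groups did not overlap. IFNGR1, the ligand-binding chain of the interferon-gamma receptor, rose by 0.80 and by 0.70 (limma, adjusted p = 6.3e-06 and 6.7e-06). IRF9, the DNA-binding partner of the type I interferon complex, rose by 1.55 at 48 hours and was 0.18 above PBS at 6 hours (limma, adjusted p = 7.1e-09 and 0.095). Without PGG 48 h replicate 2 its value at 6 hours passed (adjusted p = 0.029 from limma, difference 0.18). IFNAR1, a chain of the type I interferon receptor, fell by 1.28 and fell by 2.02 (limma, adjusted p = 2.7e-07 and 1.4e-09). PTPN2, a phosphatase of the pathway, fell by 0.50 at 6 hours when read on the brightest probe set, whereas the most variable one stood 0.77 above PBS. The choice of probe set also moved IFNGR1, to 1.74 and 1.22 on its most variable probe set, and IFNAR1 at 48 hours, to -1.25 with the mean of all probe sets. IFNG itself, chosen after its values were seen, averaged 3.46 after PGG at 6 hours, 3.30 after PGG at 48 hours and 3.47 in PBS, and passed at neither time (limma, adjusted p = 0.95 and 0.12).

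Of the 35 interferon-gamma targets listed 33 were measured, with 3 higher and 4 lower after 6 hours and with 19 higher and 2 lower after 48 hours. Their median difference was 0.01 at 6 hours and 0.38 at 48 hours. CXCL10, a chemokine for T cells, read 8.81, 8.84 and 8.87 after PGG at 6 hours, 7.58, 7.72 and 7.62 after PGG at 48 hours, and 7.17, 7.29 and 7.12 in PBS. It rose by 1.65 and by 0.45 (limma, adjusted p = 9.7e-09 and 1.1e-04), so that, as with GBP1, the arrays at 6 hours lay highest and those of PBS lowest. ICAM1, an adhesion molecule, rose by 0.94 at 6 hours (limma, adjusted p = 7.1e-07). Its most variable probe set gave 0.93 with no call (limma, adjusted p = 0.053). PSMB9, a subunit of the immunoproteasome, read 5.74, 6.03 and 5.87 after PGG at 6 hours, 8.50, 8.30 and 8.84 after PGG at 48 hours, and 6.08, 6.24 and 6.04 in PBS. It rose by 2.43 at 48 hours and was 0.24 below PBS at 6 hours (limma, adjusted p = 8.5e-09 and 0.17), with PGG 48 h replicate 2 again the lowest of its group. IL15, a cytokine of lymphocytes, fell by 0.61 and rose by 2.15 (limma, adjusted p = 8.9e-06 and 1.2e-10). TAP2, a peptide transporter subunit, fell by 0.43 at 48 hours, and WARS1, a tRNA synthetase, fell by 0.64 at 6 hours.

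All 39 type I interferon targets listed were measured, with 5 higher and 11 lower after 6 hours and with 19 higher and 3 lower after 48 hours. The median difference was -0.03 at 6 hours and 0.24 at 48 hours. ISG15, a ubiquitin-like modifier, fell by 0.39 at 6 hours but rose by 2.51 at 48 hours (limma, adjusted p = 0.0032 and 3.6e-10). IFIT1, a sensor of viral RNA ends, read 3.75, 3.82 and 3.82 after PGG at 6 hours, 6.52, 5.85 and 6.59 after PGG at 48 hours, and 3.22, 3.42 and 3.32 in PBS. It rose by 3.00 at 48 hours (limma, adjusted p = 8.8e-09). USP18, a brake on interferon signalling, rose by 0.72 and by 1.34, and PARP9, an ADP-ribosyltransferase, rose by 0.70 and by 1.48, each at an adjusted p of 1.8e-04 or less from limma. ISG20, an exonuclease, fell by 1.23 and HERC6, a HECT-type ubiquitin ligase, fell by 0.79 at 6 hours. EIF2AK2, a kinase that senses double-stranded RNA, fell by 0.81 and PLSCR1, a scramblase, fell by 0.78 at 48 hours. With the mean of all probe sets PARP9 had no call at 6 hours (0.07, limma, adjusted p = 0.56) and stood 0.48 above PBS at 48 hours, HERC6 was at -0.35 at 6 hours and EIF2AK2 at -0.49 at 48 hours.

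NF-kappaB targets were read because tumour necrosis factor and interleukin-1 act through this factor. The list held 22 genes, 21 of them measured. After 6 hours 12 stood higher and 0 lower than in PBS, and after 48 hours 13 stood higher and 4 lower. At 6 hours 0 were lower also at an unadjusted p under 0.05 and by the methods' t-test. The median difference was 0.44 at 6 hours and 0.27 at 48 hours. CXCL6, a neutrophil chemokine, read 8.66, 8.54 and 8.64 after PGG at 6 hours, 7.09, 7.22 and 7.12 after PGG at 48 hours, and 5.60, 5.80 and 5.52 in PBS. It rose by 2.97 and by 1.503 (limma, adjusted p = 7.5e-10 and 1.1e-08). LIF, a cytokine of the interleukin-6 family, rose by 1.22 and by 1.60, and REL, an NF-kappaB subunit, rose by 0.50 and by 1.73, each at an adjusted p of 2.6e-05 or less from limma. The mean of the REL probe sets was 0.33 above PBS at 6 hours. CXCL1, another neutrophil chemokine, rose by 0.63 at 6 hours but fell by 1.22 at 48 hours. NFKBIA, the inhibitor of NF-kappaB, fell by 0.44 at 48 hours (limma, adjusted p = 2.1e-04).

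Partners of the GBPs were called in both directions. The 18 genes of inflammatory caspases and pyroptosis gave 3 higher and 1 lower in the early comparison and 6 higher and 3 lower in the late one. The share higher was 16.7% early and 33.3% late, beside 17.2% and 23.9% of all genes. Over all genes 16.9% were lower early and 24.3% late. CASP4, the caspase that binds lipopolysaccharide on GBP coats, rose by 0.51 at 48 hours (limma, adjusted p = 8.4e-05). Averaged over all its probe sets CASP4 was 0.22 above PBS at 48 hours, and its difference of -0.32 at 6 hours passed, against -0.09 without a call on the brightest probe set. IL18, a cytokine released in pyroptosis, rose by 0.75 and by 0.40, CASP8, a caspase of death receptors, fell by 0.61 and fell by 0.53 (-0.40 at 6 hours with the mean of all probe sets and -0.89 at 48 hours on the most variable one), and GSDME, a pore-forming gasdermin, fell by 1.24 at 48 hours. Of 6 prenylation enzymes the early comparison had 3 higher and 1 lower, and the late one 2 higher and 3 lower. PGGT1B, a subunit of the enzyme that attaches geranylgeranyl, fell by 1.00 and fell by 0.98 (limma, adjusted p = 6.1e-06 and 2.5e-06). FNTA, a subunit of farnesyltransferase, rose by 0.81 and its partner FNTB rose by 1.08 at 48 hours, while ZMPSTE24, a CaaX protease, fell by 0.84. ICMT, a methyltransferase of prenylated ends, rose by 0.70 at 6 hours but fell by 0.73 at 48 hours. On its most variable probe set ICMT was 0.25 above PBS at 6 hours with no call (limma, adjusted p = 0.13) and fell by 1.14 at 48 hours, and the mean of all probe sets was 0.33 above PBS at 6 hours.

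The list of related large GTPases, which also held the ATPase RNF213, had 11 genes, 10 of them measured. The early comparison had 2 higher and 4 lower, and the late one 2 higher and 3 lower, with RNF213 among the lower at both times. The share higher was 20.0% at both times, beside 17.2% early and 23.9% late over all genes. MX1, an antiviral GTPase induced by interferon, fell by 0.60 at 6 hours but rose by 1.74 at 48 hours (limma, adjusted p = 5.7e-05 and 2.2e-09). IRGQ, an immunity-related GTPase, rose by 0.50 at 6 hours on its brightest probe set, and the most variable one read 0.10 below PBS. OPA1, a GTPase of mitochondrial fusion, fell by 1.62 at 48 hours, and RNF213, a large ATPase and ubiquitin ligase, fell by 0.46 and fell by 0.35. RNF213 lost its call at 6 hours on its most variable probe set (-0.14) and at 48 hours with the mean of all probe sets (-0.11), while the most variable one was at -1.37 at 48 hours. The mean of its probe sets at 6 hours was -0.25. The larger 3′ excess of ACTB on the arrays of PGG at 48 hours, which GAPDH showed clearly on replicate 2 alone, was not tested for its part in the values at that time.

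**Figure D3:**
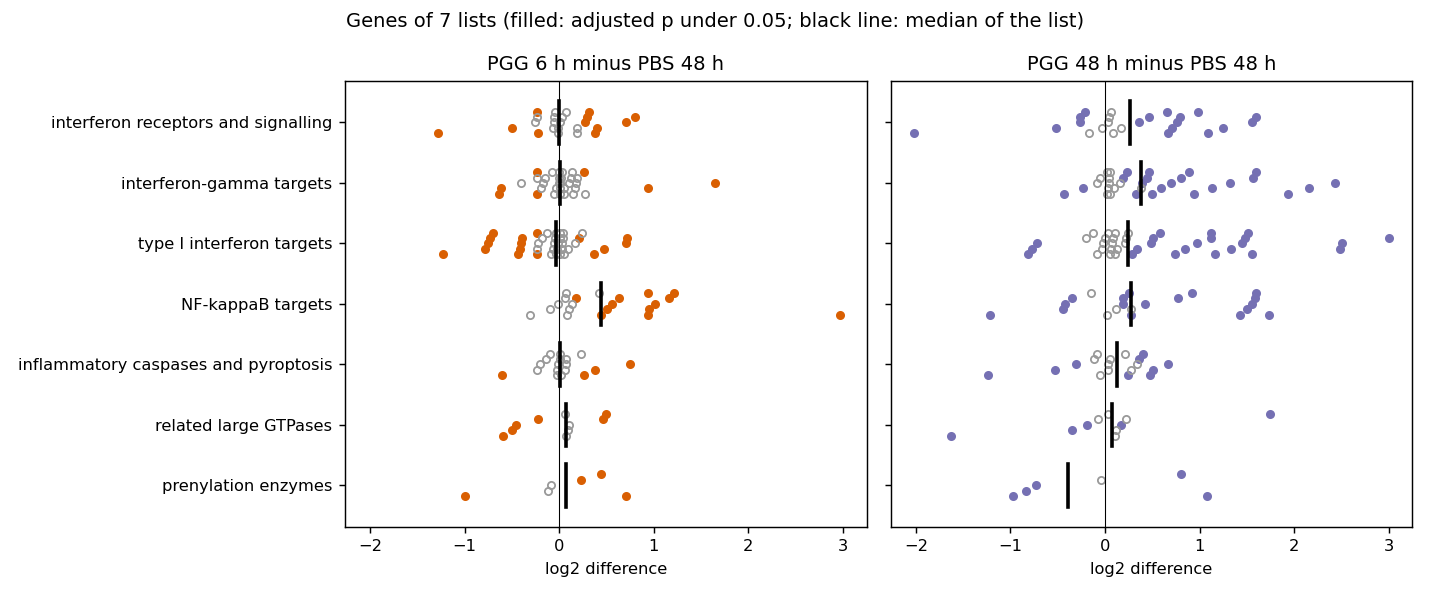
Log2 difference from PBS of the measured genes of 7 lists, at PGG 6 h on the left and PGG 48 h on the right. Each circle is a gene, filled at an adjusted p under 0.05 from limma, and black lines are list medians. The medians of the interferon-gamma and type I interferon targets are 0.01 and -0.03 at 6 hours and 0.38 and 0.24 at 48 hours, and that of NF-kappaB targets is 0.44 and 0.27.

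The genes whose pattern over the 9 arrays lay nearest to each member were found by the root mean square difference of log2 values, each gene centred on its own mean, among 3407 genes whose group means spanned more than 1. For GBP1 these were MT1M, a metallothionein (0.29), CXCL6 (0.30) and TAGLN, an actin-binding protein (0.36). MT1M differed from PBS by 3.45 at 6 hours and 1.66 at 48 hours, and TAGLN by 2.60 and 0.73. For GBP2 they were CDCA2, a chromatin phosphatase adaptor (0.09), MPZL2, an adhesion protein (0.10), and KDM3A, a histone demethylase (0.11), with differences of 1.45, 1.38 and 1.48 at 6 hours and 2.86, 2.94 and 3.01 at 48 hours. The match used the brightest GBP2 probe set, 202748_at. The other one, 242907_at, with 2.65 and 3.18 and a smaller step between the times, was not matched. For GBP3 they were ERLN (0.11), PLAAT4, an interferon-inducible acyltransferase (0.12), and PGLYRP2, an amidase that the liver secretes (0.14), with differences of 0.29, 0.22 and 0.24 at 6 hours and 2.26, 2.51 and 2.44 at 48 hours. All values rest on the same 9 arrays, so likeness here is a description. GBP4, whose group means spanned 0.02, was not matched.

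**Figure D4:**
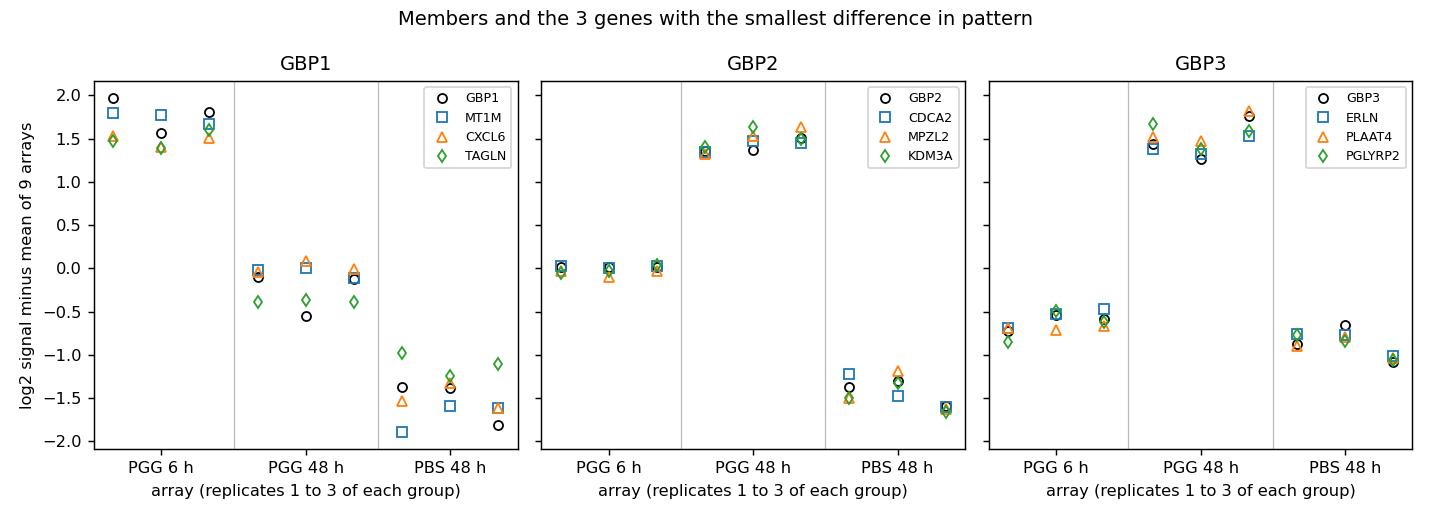
Log2 signal of GBP1, GBP2 and GBP3 and of the 3 genes nearest to each, every gene centred on its mean of 9 arrays, for the arrays of PGG at 6 hours, PGG at 48 hours and PBS. Each gene is drawn by its brightest probe set. GBP1 and its neighbours are highest at 6 hours, whereas GBP2 and GBP3 with theirs are highest at 48 hours.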

How the data were processed

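Affymetrix arrays measured RNA of Huh7 cells, with 9 arrays in 3 groups of 3 taken from the sample titles. The authors ran RMA in Affymetrix Expression Console and deposited a log2 value for each probe set, rounded to 2 decimals. Its version was not given in the sources used here. RMA equalises the arrays, so a shift of all genes would not be seen. Of 54675 probe sets, 62 controls were left out of the tests.

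Here limma 3.58.1 in R 4.3.3 was fitted with a mean for each group and a shared spread, with Benjamini-Hochberg adjustment over 54613 probe sets or over 19775 genes, with the brightest probe set on average standing for each gene. Standard errors of the members come from the probe-set fit. The study tested probe sets by a t-test, which was run as an alternative together with other scalings, probe set choices, array weights and left-out arrays. The limma fit was tested on simulated data. The recovery required of limma in that test was lowered after the first outcome fell just short of it, and false calls there made up slightly more than the nominal share of calls. The fit was left as it was. Motifs and local alignments (Biopython 1.88, match 2, mismatch -3, gap -5 and -2) were computed on RefSeq windows.

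The members, the 9 gene lists and the 3 marker lists were chosen with earlier results of these data known. From each list up to 2 rises and 2 falls per comparison are named, besides GBP5, GBP6, IRF1 and IFNGR1. Listed genes without a probe set of their own, 7 of 166, were not analysed here. Some genes stand in more than 1 list. Arrays hold no counts, so their number and the signal over background limit the precision.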

Additional observations from a re-analysis of the deposited data

Results flagged for a closer look

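Of 50 genes named from the lists, 42 differed between PGG at 48 hours and PGG at 6 hours (limma, adjusted p under 0.05 over all genes). Most of the 50 were named for a large difference from PBS at 1 time or at both. GBP5, GBP6, IRF1 and IFNGR1 were to be named whatever their values. The number that differed is therefore a description. The share of all genes that differed between the times was not counted, so nothing is read from the number. At first only the 8 genes below with opposite signs were taken, and the rule was widened to every such difference after results were seen. In these 8 of them the differences from PBS at the 2 times had opposite signs and both passed. Lower than PBS at 6 hours and higher at 48 hours were ISG15, with a difference between the times of 2.90, IL15 with 2.77, ISG20 with 2.39, MX1 with 2.34 and MX2 with 0.66. Higher first and lower later were CXCL1 at -1.85, ICMT at -1.43 and DNM1L, a GTPase of mitochondrial fission, at -0.65. For MX2 and DNM1L the difference from PBS at 48 hours was small. It was 0.17 for MX2 (adjusted p = 0.041 from limma) and did not pass with any 1 of 7 arrays left out, where it was 0.15 to 0.18. It was -0.19 for DNM1L (adjusted p = 0.038 from limma) and did not pass with any 1 of 5 arrays left out, where it was -0.20 to -0.13.

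The other genes that were higher at 48 hours than at 6 hours had differences of 2.67 for PSMB9, 2.52 for IFIT1, 1.37 for IRF9, 1.23 for REL, 1.01 for GTF2B, 0.92 for FNTA, 0.91 for IRF2 and 0.89 for IRF1. They were 0.77 for PARP9, 0.70 for HERC6, 0.64 for FNTB, 0.62 for USP18, 0.60 for CASP4, 0.46 for GBP5, 0.40 for WARS1 and 0.38 for LIF. PTPN2 had 0.53 on its brightest probe set but -1.55 on the most variable one and -0.14 with the mean of all probe sets, and each of the 3 passed. Among genes lower at 48 hours than at 6 hours, the difference was -1.68 for OPA1, -1.47 for CXCL6, -1.32 for ZNF326, -1.29 for LRRC8B, -1.22 for GSDME, -1.20 for CXCL10, -0.75 for ICAM1 and for ZMPSTE24, -0.74 for IFNAR1 and -0.72 for EIF2AK2. It was -0.54 for NFKBIA, -0.46 for IRGQ, -0.43 for NINJ1, a mediator of plasma membrane rupture, -0.37 for PLSCR1, -0.35 for IL18, -0.29 for IRF3 and -0.24 for TAP2. With another choice of probe set IRGQ and TAP2 lost their call between the times, and 10 genes kept it with a value that moved by more than 1.5 times. With 3 arrays a group, single arrays far from the rest were not looked for.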

How the results depend on the processing

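The members kept their differences within the spread of replicates under another scaling and array weights. An intensity trend and the replicate block cannot move a difference of group means in this balanced design and change only its standard error. The choice of probe set moved the differences. With the mean of all probe sets GBP1 stood at 2.43 at 6 hours and 0.99 at 48 hours, and GBP2 at 2.04 and 3.01. With the probe set of the largest spread GBP2 stood at 2.65 and 3.18, and GBP4 at 0.17 at 48 hours. With dim probe sets left out GBP4 gave no value. With 1 array left out at a time GBP1 ranged over 3.17 to 3.42 at 6 hours and 1.13 to 1.41 at 48 hours, GBP2 over 1.35 to 1.49 and 2.74 to 2.89, GBP3 over 0.14 to 0.36 and 2.22 to 2.47, and GBP4 over -0.08 to 0.11 and -0.04 to 0.07.

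Of the genes in the 9 lists, 65 passed at 6 hours and 101 at 48 hours, with 51 to 70 and 94 to 102 when 1 array was left out. At the cut-offs of the study 2 and 21 passed. Over all probe sets those cut-offs gave 401 and 2250 with limma and 310 and 1883 with the methods' t-test after Benjamini-Hochberg, or 393 and 2190 on its unadjusted p. The replicate block gave 61 and 102 list genes. Of 9 same-numbered pairs of arrays, 3 deviated together at a correlation over 0.1, within a range of -0.089 to 0.162. Differently numbered pairs ranged from -0.178 to 0.107. Whether the numbers pair the arrays was not settled by these values, and the main fit did not pair them. The block moved the highest-mean probe set of GBP6 at 48 hours to an adjusted p of 0.038 (limma, difference 0.25).

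Of 1792 values of the named list genes under the alternatives, 68 lost their call and 11 gained it with the sign kept. Another 8 changed sign where the main value, the alternative or both passed, all through the probe sets used. Both passed for LRRC8C at 48 hours and PTPN2 at 6 hours with the largest-spread probe set. IRGQ and PTPN2 at 48 hours passed in the alternative only, and the rest in the main fit only. With the largest-spread probe set ICAM1 at 48 hours was -0.51, IRGQ -0.10 at 6 hours and -0.66 at 48 hours, LRRC8C -0.28 at 48 hours, and PTPN2 0.77 at 6 hours and -0.78 at 48 hours. With the mean of all probe sets LRRC8C at 48 hours was -0.008 and PTPN2 at 6 hours 0.0571. The cause was not tested.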
